A study of Mus musculus with 6 samples.

Results

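The genes described here encode the extracellular matrix of the islet and the vessel-wall cells that sit in it: 33 mouse genes chosen by symbol, all of which matched an Ensembl gene ID among the 56980 in the deposited count table. They comprise 8 collagen genes of interstitial matrix, 4 collagen genes of basement membrane, 6 laminin chains, the nidogens, perlecan and fibronectin, 6 genes of proteoglycans, glycoproteins and a protease inhibitor, and 5 genes of mural and contractile cells. Total RNA of whole islets was measured at 14 weeks of age. The 3 knockout libraries came from mice with floxed Ssbp3 alleles (SSBP3F/F) and the MIP-CreER transgene, in which the mouse insulin promoter drives a Cre recombinase that acts after tamoxifen. The 3 control libraries came from littermates with the same floxed alleles and no Cre, so both groups share the floxed locus, and the Cre transgene and the loss of SSBP3 cannot be told apart. Ssbp3 encodes a nuclear co-regulator that works with LDB1, and the title of the series names islet architecture among its subjects. The sources used here state neither the tamoxifen treatment nor whether a library holds islets of a single mouse or of a pool. The p-values set the difference between the groups against the variation among these libraries, some of which may be technical. They therefore speak for these libraries and not for a known number of animals.

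Islet capillaries are wrapped in a basement membrane, a thin sheet in which networks of type IV collagen and laminin are linked by nidogen and the proteoglycan perlecan. In mouse islets beta cells do not build this sheet themselves and touch the one made by the vessels, mainly by endothelial cells and the pericytes that surround them. Interstitial matrix, rich in collagens I, III, V and VI, lies in the thin capsule and along larger vessels and is made mainly by fibroblasts and stellate cells. Cre driven by the insulin promoter is aimed at beta cells, so the genes described here are mostly those of cells other than the targeted ones.

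Library totals were 14907641, 83647474 and 93841878 counts for knockout 1, 2 and 3, against 17587055, 89044012 and 225428920 counts for control 1, 2 and 3. Values are CPM, reads counted for a gene scaled to the library total, on TMM-scaled library sizes, and 3 counts, taken as the floor, correspond to at most 0.201 CPM in any library before that scaling. The islet label is met by 10 beta-cell markers, which summed to 141800 to 159500 CPM in knockout and 188900 to 243900 CPM in control libraries. Ssbp3 itself, counted over the whole gene and all islet cells, had 52.3, 58.1 and 57.1 CPM in knockout libraries and 65.8, 81.3 and 74.2 CPM in control libraries, and was not called (edgeR adjusted p = 0.0581). Acinar markers summed to between 24870 and 85080 CPM in knockout and 31570 and 63690 CPM in control libraries. In bulk samples fewer cells of a type and less RNA per cell cannot be told apart.

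The type IV collagen genes Col4a1 and Col4a2 lie head to head and are transcribed in opposite directions from a common stretch of DNA, and their promoter windows are shown to let the arrangement be seen. Whether these sequences bear on any value given here was not tested. Each window runs from 250 bases before to 50 bases after the annotated start, 5′ to 3′ on the gene's own strand, as given by RefSeq for GRCm38.p6, at chr8:11312777-11313076 on the minus strand for Col4a1 and chr8:11312555-11312854 on the plus strand for Col4a2. Capitals mark the 78 bases that both windows hold, which in the Col4a2 line are the reverse complement of those in the Col4a1 line.
Col4a1: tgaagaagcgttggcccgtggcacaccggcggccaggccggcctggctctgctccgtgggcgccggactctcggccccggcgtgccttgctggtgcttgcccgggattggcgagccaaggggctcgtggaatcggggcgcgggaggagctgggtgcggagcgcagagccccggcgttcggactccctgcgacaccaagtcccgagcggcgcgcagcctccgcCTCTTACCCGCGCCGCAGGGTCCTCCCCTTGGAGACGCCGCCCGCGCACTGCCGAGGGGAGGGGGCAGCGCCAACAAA
Col4a2: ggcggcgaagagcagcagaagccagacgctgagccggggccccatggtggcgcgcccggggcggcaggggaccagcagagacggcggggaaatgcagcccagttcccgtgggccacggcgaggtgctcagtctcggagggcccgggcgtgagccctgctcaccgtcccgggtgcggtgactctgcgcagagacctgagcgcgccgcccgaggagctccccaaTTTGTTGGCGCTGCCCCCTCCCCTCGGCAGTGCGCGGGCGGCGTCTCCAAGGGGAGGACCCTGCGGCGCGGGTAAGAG
Searched on both strands, the GC box GGGCGG occurred 1 time in the Col4a1 window and 3 times in the Col4a2 window, and the CCAAT box CCAAT occurred 1 time in each. The windows overlap, so a match in the capitals counts for both genes. RefSeq windows were at hand for 22 of the 33 genes. Of these, 14 held a GC box, which 35.7% of all 32851 mouse windows hold, and 8 held a CCAAT box, which 37.4% hold. The sequence TATAAA stood in 1 of the 22, Col3a1, against 13.6% of all windows. These matches describe letters in the window and were not tested as binding sites.

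Measured per length of exon, the order of the genes was led by small secreted proteins and by type IV collagen. The highest was Mgp, matrix Gla protein, an inhibitor of calcification made by vascular cells, with 40.2 ± 4.47 CPM per kb in knockout and 50.9 ± 24.1 CPM per kb in control libraries (SD, n = 3 per group, as for all means below). Sparc, a collagen-binding glycoprotein, followed with 34.7 ± 1.23 CPM per kb in knockout and 37.0 ± 8.94 in control libraries. Timp1, an inhibitor of matrix metalloproteinases, had 14.9 ± 6.73 and Col4a1 15.5 ± 2.33 CPM per kb in knockout libraries, against 17.35 ± 6.24 and 16.6 ± 2.60 in control libraries, so these genes, which swap places between the groups, do not differ beyond their spread. Col4a2 came next in both groups, with 12.3 ± 1.36 CPM per kb in knockout and 11.2 ± 1.54 in control libraries. Below it stood a step, to Rgs5 in knockout libraries, at 5.66 ± 0.561 CPM per kb, and to Col1a1 in control libraries, at 6.74 ± 2.62. Most of the remaining genes formed a gradual series, with Nid2 near its low end at 0.904 ± 0.335 CPM per kb in knockout and 0.779 ± 0.171 in control libraries. Among the laminin chains Lamc1, the gamma chain common to most laminins, was highest, with 4.44 ± 1.15 CPM per kb in knockout and 3.93 ± 0.525 in control libraries, and Lama2, the alpha chain best known from muscle, was lowest at 0.105 ± 0.0391 in knockout and 0.0554 ± 0.002455 in control libraries.

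**Figure D1:**
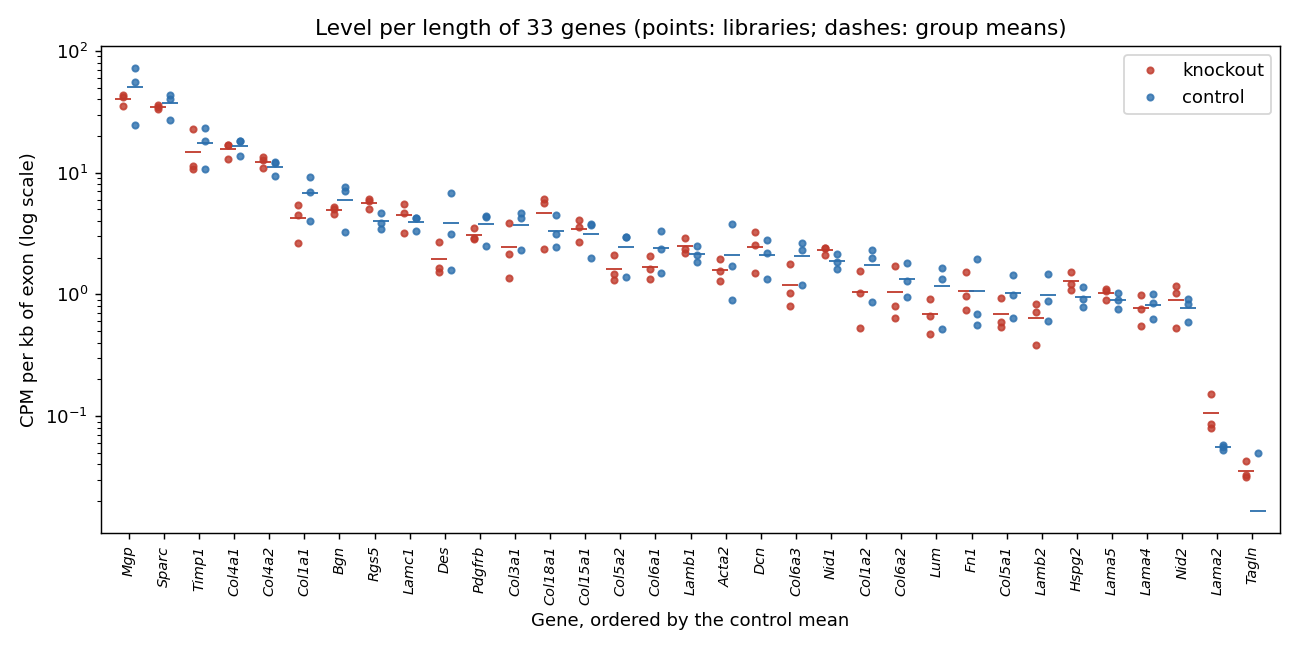
Level of each of the 33 genes in CPM per kb of exon (log axis), ordered by the control mean. Points are libraries and dashes group means, with knockout in red left of control in blue. Mgp, Sparc, Timp1, Col4a1 and Col4a2 lead in both groups. Tagln had 0 counts in control 1 and 2, which a log axis cannot show.

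Tagln, which encodes the smooth muscle protein transgelin, stood apart at the low end. It had 1, 5 and 9 counts in knockout 1, 2 and 3, against 0, 0 and 22 counts in control 1, 2 and 3. This was too low for the test, and no fold is given. Of its 1988 exonic bases, 1241 overlap the opposite-strand gene Gm48529 and 108 overlap Pcsk7 in the GENCODE M21 annotation of GRCm38, the largest such overlap among the 33. The sources do not say how reads in overlaps were counted, and the part of this overlap in the low count was not tested.

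None of the 32 genes tested was called between knockout and control islets by edgeR at an adjusted p under 0.05, where 7.07% of all 18558 genes tested were called, 3.72% higher and 3.35% lower. At an unadjusted p under 0.05 there were 2 of 32, Rgs5 and Hspg2, against 21.6% of all genes. DESeq2 called 1 of the 32, Rgs5, against 11.0% of all genes, and limma-voom called 1, also Rgs5, against 9.30%. The groups did not overlap for 2 of the 32, Rgs5 and Lama2, both with every knockout library above every control library, while 28.0% of all genes tested had groups that did not overlap. The median log2 fold change (knockout over control) was -0.17 over the 32 genes and 0.00 over all genes tested to 2 decimals, with 13 of the 32 above 0 and 19 below. Of all 18558 genes tested, 9245 were above 0 and 9313 below. Genes of a set are not independent, so counts of estimates above or below 0 do not count separate observations. A p that misses the threshold does not show equal levels, and the intervals below give the sizes that the libraries leave possible.

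**Figure D2:**
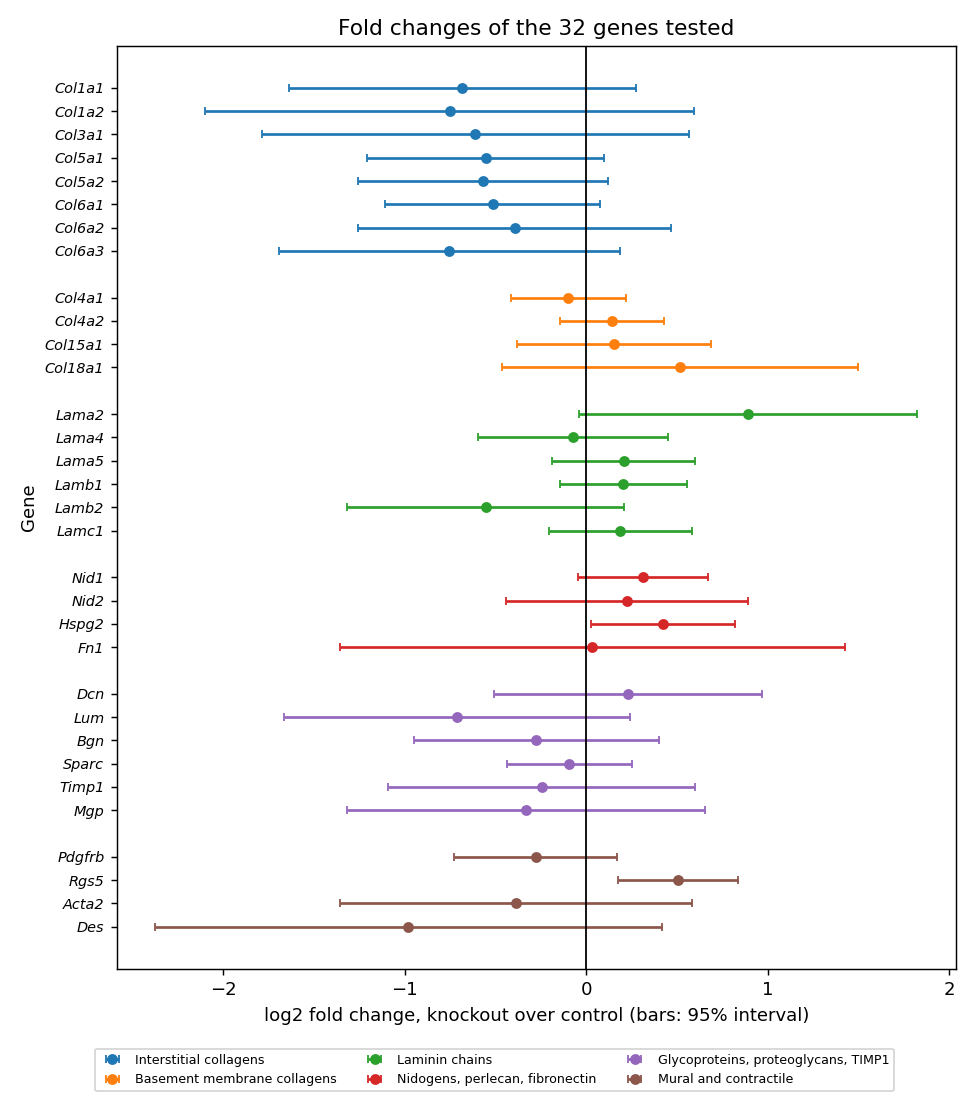
Log2 fold change, knockout over control, of the 32 genes tested, with 95% intervals from the edgeR fit, unadjusted for multiple tests, coloured by role. All 8 interstitial collagens lie left of 0 with wide intervals that include 0, most basement membrane genes lie near 0, with Lama2, Lamb2 and Col18a1 farther out, and the intervals of Rgs5 and Hspg2 do not reach 0.

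Collagens of interstitial matrix had lower estimates in knockout islets in all 8 cases, from -0.75 for Col6a3 to -0.39 for Col6a2 on the log2 scale with a median of -0.59, and none was called. These 8 estimates are not independent: control 3 was the lowest control library for all 8, and knockout 2 the lowest knockout library for 6. Col1a1, a chain of type I collagen, the main fibre of connective tissue, had 29.6, 17.5 and 35.6 CPM in knockout 1, 2 and 3, against 45.7, 60.6 and 26.3 CPM in control 1, 2 and 3. The low value of control 3 lay within the knockout range, so the groups overlapped. The log2 fold change was -0.68 (SE 0.389, 95% interval -1.64 to 0.28, edgeR adjusted p = 0.390). Its partner chain Col1a2 had 19.4, 6.61 and 12.6 CPM in knockout libraries and 28.8, 24.9 and 10.7 CPM in control libraries. Col3a1, the collagen of reticular fibres, had 38.0, 13.4 and 21.0 CPM in knockout libraries and 41.2, 45.3 and 22.5 CPM in control libraries. For all 3 genes knockout 2 was the lowest library of the 6, and the highest was control 1 or control 2. Col5a2, a chain of the type V collagen that regulates fibre width, had 12.5, 14.1 and 20.1 CPM in knockout libraries and 28.3, 28.6 and 13.3 CPM in control libraries, and its estimate on the log2 scale was -0.57 (SE 0.303, interval -1.26 to 0.12, edgeR adjusted p = 0.329). Col6a3, a chain of the beaded filaments of type VI collagen, had 12.2, 9.61 and 21.3 CPM in knockout libraries and 31.5, 27.9 and 14.2 CPM in control libraries. Control 3 again lay among the knockout libraries for both genes. Col5a1, Col6a1 and Col6a2 averaged 5.82 ± 1.80, 7.32 ± 1.62 and 8.74 ± 4.80 CPM in knockout islets, against 8.66 ± 3.35, 10.5 ± 3.98 and 11.2 ± 3.5 CPM in control islets, with adjusted p of 0.319, 0.305 and 0.616 by edgeR.

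Basement membrane genes had a median log2 fold change of 0.20 over 13 genes, of which 10 were above 0, and none was called. Their estimates ran from -0.55 for Lamb2 to 0.89 for Lama2. Across all genes log2 fold changes were higher for longer genes (Spearman's rho 0.212). Length and GC offsets shifted the estimates of the 32 genes by a median of -0.14, and took Col4a2 to -0.0108 and Lama5 to -0.0070. The part of gene length in these estimates was not tested. Col4a1 had 95.6, 125 and 126 CPM in knockout 1, 2 and 3, against 136, 134 and 102 CPM in control 1, 2 and 3. Its log2 fold change was -0.10 (SE 0.146, edgeR adjusted p = 0.758), and the 95% interval as a fold ran from 0.750 to 1.16. Col4a2 had 71.6, 89.2 and 83.5 CPM in knockout libraries and 80.4, 79.5 and 62.3 CPM in control libraries, and its log2 fold change was 0.14 (SE 0.132, adjusted p by edgeR = 0.598), with an interval of 0.904 to 1.34-fold. The log2 intervals of these chains were the narrowest among the 32 genes. Col15a1 and Col18a1, the collagens that join basement membrane to the tissue beneath and that carry the endostatin-type fragment, averaged 22.0 ± 4.45 and 32.9 ± 14.3 CPM in knockout islets, against 20.0 ± 6.51 and 23.4 ± 7.15 CPM in control islets. Col18a1 was at 16.4 CPM in knockout 1 but 42.8 and 39.4 CPM in knockout 2 and 3, with 31.2, 21.9 and 17.2 CPM in control 1, 2 and 3.

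The 2 chains of type IV collagen assemble into 1 trimer, and their ratio is free of the scaling between libraries. Per kb of exon the ratio of Col4a1 to Col4a2 was 1.19, 1.25 and 1.34 in knockout 1, 2 and 3, against 1.51, 1.5 and 1.45 in control 1, 2 and 3. Each knockout library thus lay below each control library. In a two-sided exact permutation test on the log2 ratio p was 0.10, the smallest that 3 against 3 libraries allow, and 0.50 after adjustment over the 5 chain pairs compared. The other pairs overlapped between the groups: Col1a1 to Col1a2 (4.41 ± 1.32 in knockout, 4.09 ± 0.939 in control), Col5a1 to Col5a2 (0.418 ± 0.0231 and 0.426 ± 0.0788), Col6a1 to Col6a2 (1.77 ± 0.487 and 1.83 ± 0.684) and Lamb1 to Lamc1 (0.577 ± 0.129 and 0.548 ± 0.0436). These pairs were chosen after values of the genes had been seen. At their head-to-head ends 22 exonic bases belong to both genes, on opposite strands, in GENCODE M21.

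**Figure D3:**
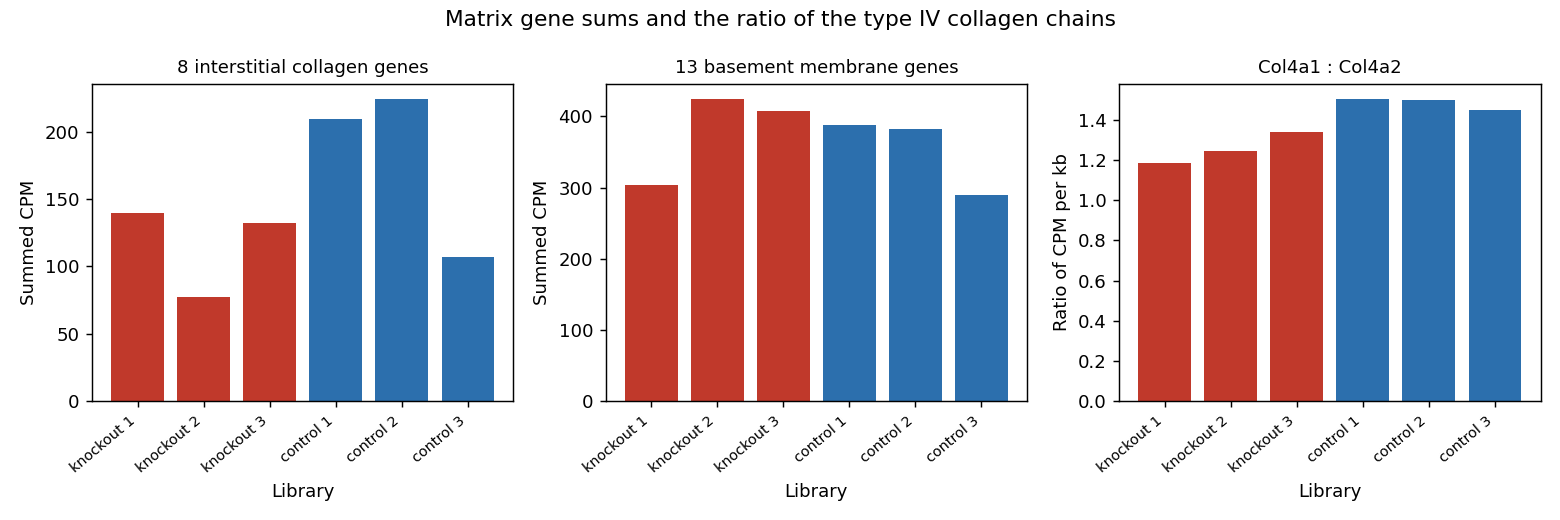
Bars give each library's summed CPM of 8 interstitial collagen genes (left), summed CPM of 13 basement membrane genes (middle) and the ratio of Col4a1 to Col4a2 in CPM per kb (right), knockout libraries in red and control libraries in blue. Interstitial sums overlap between the groups, with control 3 at 107, and the ratio runs from 1.19 to 1.34 in knockout and 1.45 to 1.51 in control libraries.

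Among the laminins, the cross-shaped trimers of an alpha, a beta and a gamma chain, the main vascular chains lay close to even. Lama4 and Lama5, the alpha chains of endothelial basement membrane, averaged 9.23 ± 2.68 and 11.7 ± 1.23 CPM in knockout islets, against 9.91 ± 2.30 and 10.2 ± 1.51 CPM in control islets. Lamb1 averaged 24.5 ± 3.61 and Lamc1 36.7 ± 9.54 CPM in knockout islets, against 21.3 ± 3.28 and 32.5 ± 4.35 CPM in control islets. These 4 genes had edgeR adjusted p between 0.513 and 0.900. Lama2 had 2.46, 1.31 and 1.39 CPM in knockout libraries and 0.903, 0.946 and 0.865 CPM in control libraries, so the groups did not overlap. Its log2 fold change of 0.89 (SE 0.430, interval -0.04 to 1.83) was not called by edgeR (adjusted p = 0.251), and its highest value, in the shallow library knockout 1, rests on 38 counts. Of its exonic bases, 631 of 16338 overlap the opposite-strand gene Gm48084. Lamb2 had 2.33, 5.04 and 4.34 CPM in knockout libraries and 8.92, 5.35 and 3.66 CPM in control libraries, an estimate of -0.55 on the log2 scale (adjusted p = 0.406 by edgeR). Both shallow libraries held the extremes of Lamb2, knockout 1 the lowest and control 1 the highest.

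Linkers of the basement membrane all had estimates above 0. Hspg2, which encodes perlecan, had 15.6, 21.8 and 17.3 CPM in knockout libraries and 11.3, 16.4 and 13.1 CPM in control libraries. Control 2 lay above knockout 1, so the groups overlapped, and the log2 fold change was 0.42 (SE 0.183, interval 0.02 to 0.82, edgeR adjusted p = 0.201). Nid1, a nidogen that bridges laminin and type IV collagen, had 14.5, 16.7 and 16.8 CPM in knockout libraries and 12.8, 14.9 and 11.1 CPM in control libraries (log2 fold change 0.32, SE 0.165, edgeR adjusted p = 0.296). Nid2 averaged 4.68 ± 1.73 CPM in knockout and 4.03 ± 0.883 CPM in control islets. Fn1, fibronectin, a glycoprotein of plasma and of interstitial and vascular matrix, had 17.7, 11.2 and 8.66 CPM in knockout libraries and 22.7, 6.53 and 7.99 CPM in control libraries. In both groups the shallow library was the highest for Fn1, and its interval, 0.390 to 2.69-fold, was exceeded on the log2 scale by that of Des alone.

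The small matrix proteins overlapped between the groups. Sparc had 131, 136 and 127 CPM in knockout libraries and 154, 165 and 102 CPM in control libraries (log2 fold change -0.09, SE 0.158, edgeR adjusted p = 0.793). Mgp had 49.5, 52.0 and 41.8 CPM in knockout libraries and 85.7, 66.2 and 29.4 CPM in control libraries, and Bgn, the proteoglycan biglycan, 31.7, 27.6 and 30.7 CPM in knockout libraries and 42.7, 46.7 and 19.8 CPM in control libraries. For these 3 genes the knockout libraries sat inside the wider control range, between control 3 below and control 1 and 2 above. Dcn and Lum, which encode the collagen-binding proteoglycans decorin and lumican, averaged 14.2 ± 5.13 and 1.68 ± 0.543 CPM in knockout islets, against 12.2 ± 4.29 and 2.87 ± 1.43 CPM in control islets. Timp1 had 20.1, 10.1 and 9.43 CPM in knockout libraries and 16.0, 20.6 and 9.58 CPM in control libraries.

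Rgs5, a regulator of G-protein signalling and a marker of pericytes, came nearest to a call. It had 22.9, 26.6 and 27.8 CPM in knockout 1, 2 and 3, against 17.6, 15.8 and 21.0 CPM in control 1, 2 and 3, with no overlap. The log2 fold change was 0.51 (SE 0.153, interval 0.18 to 0.84), with an edgeR adjusted p of 0.0659. It was called under 6 of 16 other settings, and its adjusted p ran from 0.0298 to 0.270 over the 16. The other 3 mural and contractile genes tested had estimates below 0. Pdgfrb, the receptor through which endothelial cells recruit pericytes, had 15.9, 15.5 and 19.1 CPM in knockout libraries and 24.0, 23.9 and 13.7 CPM in control libraries (log2 fold change -0.28, SE 0.207, edgeR adjusted p = 0.487). Acta2, smooth muscle actin, had 4.27, 3.39 and 2.81 CPM in knockout libraries and 8.24, 3.73 and 1.99 CPM in control libraries. Des, which encodes the muscle filament protein desmin, had 10.1, 6.14 and 5.73 CPM in knockout libraries and 25.6, 11.8 and 5.95 CPM in control libraries. Control 1 was the highest of the 6 libraries for Acta2 and Des, at 4.15 and 4.31 times control 3. The log2 fold change of Des, -0.98, was the lowest of the 32 genes, with an interval from -2.37 to 0.42. When 1 library was left out, the estimate for Des ran from -1.36 to -0.30. Of the 15 further mural markers tested, 0 were called by edgeR or DESeq2, 1 by limma-voom and 2 had an unadjusted p under 0.05 by edgeR, and their median log2 fold change was -0.05, with a summed level of 133 to 163 CPM in knockout and 131 to 141 CPM in control libraries, of which Anpep gave 62.9% and 51.6%.

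Spread within a group was wide for these genes. The coefficient of variation had a median of 27.5% among knockout and 32.9% among control libraries over the 32 genes, against 14.0% and 13.2% over the 12746 other genes at levels within their range. Interstitial collagens varied by a median of 38.2% in knockout and 37.7% in control libraries, and basement membrane genes by 20.2% and 15.6%. Control 3, the deepest library, was the lowest of the 3 control libraries for 28 of the 32 genes, or 87.5%, whereas it was the lowest for 31.3% of all genes tested. All 8 interstitial collagens, all 4 basement membrane collagens, all 6 laminins and all 6 proteoglycan, glycoprotein and inhibitor genes were among those 28. In the knockout group the lowest library differed by role: knockout 1 for 12 of 13 basement membrane genes and knockout 2 for 6 of 8 interstitial collagens. The 8 interstitial collagens summed to 139.5, 77.4 and 132 CPM in knockout libraries and 209, 224.5 and 107 CPM in control libraries, while the 13 basement membrane genes summed to 303.5, 425 and 408 CPM in knockout libraries and 387, 383 and 289 CPM in control libraries. The ratio of these sums was lowest in knockout 2, at 0.182, and highest in control 2, at 0.587, with control 3, at 0.370, between knockout 3, at 0.324, and knockout 1, at 0.460.

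**Figure D4:**
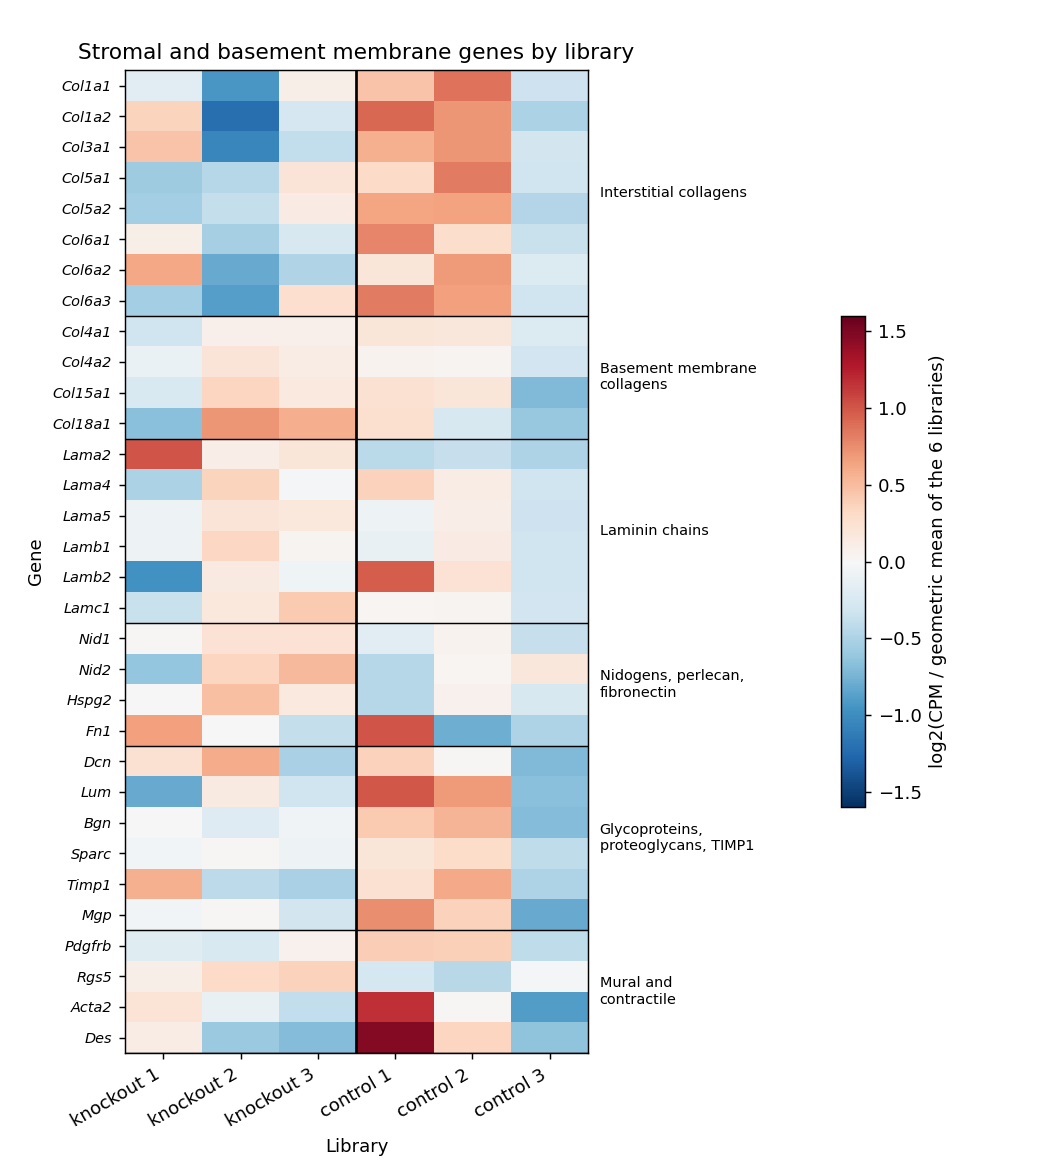
Colour gives log2 of each library's CPM over the gene's geometric mean across the 6 libraries, for the 32 genes tested in rows grouped by role, with knockout libraries left of the line and control libraries right of it. The column of control 3 is blue for most rows, control 1 is darkest red for Des and Acta2, and knockout 2 is darkest blue for Col1a2 and Col3a1.

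Leaving out control 3 changed the count of calls. Without that library 5 of the 32 genes were called by edgeR, against 6.80% of all 19245 genes tested in that fit. Rgs5 was called higher (log2 fold change 0.64, adjusted p = 0.0409). Mgp (-0.66, adjusted p = 0.0167), Col5a2 (-0.85, 0.0222), Bgn (-0.57, 0.0300) and Des (-1.36, 0.0421) were called lower. Control 3 was the lowest control library for Mgp, Col5a2, Bgn and Des and the highest for Rgs5. Leaving it out therefore moves each of these estimates away from 0 by construction. These calls are no separate evidence of a difference, and the share over all genes is no like measure for them. Why control 3 stands lower was not tested. Leaving out any other single library gave 0 calls among the 32 by edgeR. Over all genes those fits called 519 to 1098, out of 19268 to 19549 genes tested.

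Levels of other cell types were set beside these values. Of the 16 fibroblast and stellate cell markers, 0 were called by edgeR, DESeq2 or limma-voom, 1 had an unadjusted p under 0.05, and the median log2 fold change was 0.15. They summed to 51.9 to 73.2 CPM in knockout and 52.4 to 76.2 CPM in control libraries, and control 3, at 52.4, was the lowest control. Tcf21 and Clec3b of that list were at 0 in at least 1 library. The 20 endothelial markers summed to 463 to 570 CPM in knockout and 409 to 480 CPM in control libraries, with control 3 again the lowest. Their median log2 fold change was 0.22, with 17 of 20 above 0, and 1 was called higher and 1 lower by edgeR, against 3.72% and 3.35% of all genes tested. Cdh5, the endothelial cadherin, rose to 44.1 ± 5.04 CPM in knockout islets, against 30.8 ± 4.63 CPM in control islets (edgeR adjusted p = 0.0481). Egfl7, a secreted vascular matrix protein, fell to 16.5 ± 1.97 CPM in knockout islets, against 25.1 ± 3.91 CPM in control islets (edgeR adjusted p = 0.03915). Without 1 library Cdh5 was called in 2 of 6 fits, those without control 3 and without knockout 3, and Egfl7 in 1 of 6, the one without control 3.

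Other lists were checked in the same way. Their counts of edgeR calls stand beside 3.72% of all genes tested called higher and 3.35% called lower. Of the 8 mesothelial and 6 adipocyte markers, 6 and 5 were at 0 in at least 1 library, and the lists summed to 23.4 to 29.6 and 15.6 to 18.1 CPM in knockout libraries and 16.3 to 33.4 and 16.0 to 19.6 CPM in control libraries. Only 2 mesothelial markers were tested: Gpm6a, which neurons also express, rose (log2 fold change 2.0, edgeR adjusted p = 0.000659), and Msln, which made up 82.9% of the control sum, had an estimate of -0.64 and was not called (adjusted p = 0.275). The 1 adipocyte marker tested, Fabp4, had an estimate of -0.06 and was not called (edgeR adjusted p = 0.874). Schwann cell markers summed to 161 to 173 CPM in knockout and 117 to 131 CPM in control libraries, mostly from Mbp and Ncam1, the 2 of 10 that rose (edgeR adjusted p 0.0254 and 0.0362). The other 8 were not called, 5 of the 10 had estimates above 0 and 5 below, and the median was 0.04. Without 1 library Mbp was called in 1 of 6 fits, the one without control 3, and Ncam1 in 0. Macrophage and leukocyte markers, 0 of 14 called by edgeR or limma-voom, 1 by DESeq2 and 1 at an unadjusted p under 0.05, had a median of 0.09 and summed to 102 to 196 CPM in knockout and 112 to 130 CPM in control libraries. Duct markers summed to 1780 to 2574 CPM in knockout and 2388 to 3080 CPM in control libraries, and without Spp1, which made up 29.7% of the knockout and 49.7% of the control sum, to 1226 to 1842 CPM in knockout and 1230 to 1599 CPM in control libraries. Of 11 tested, 7 had estimates above 0, the median was 0.29 and 2 were called higher by edgeR, among them Cftr, a chloride channel of duct cells (adjusted p = 0.0169, called in 3 of 6 fits without 1 library). Cftr stood low, with 30, 118 and 107 counts in knockout 1, 2 and 3, against 6, 8 and 51 counts in control 1, 2 and 3. Of 15 acinar markers 11 had estimates above 0, with a median of 0.12, and the 1 called, Bhlha15, was lower (edgeR adjusted p = 0.00883). All 10 beta-cell markers had estimates below 0, with a median of -0.56, and G6pc2, Mafa and Ucn3 fell (edgeR adjusted p 0.00175, 0.0157 and 0.0176). Without 1 library G6pc2 was called in 6 of 6 fits, and Mafa and Ucn3 in 3 each. Control 3 was not the lowest control library for every list. It was the lowest in the sums of fibroblast, endothelial, acinar, mesothelial and adipocyte markers. Control 2 was the lowest for mural, macrophage and leukocyte, and Schwann cell markers, and control 1 for duct and beta-cell markers. The part of any of these cell types in the values of the matrix genes was not tested.

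Among receptors for matrix several genes passed the test. Of 24 listed, 22 were tested and 7 rose in knockout islets and 0 fell, where 3.72% of all genes tested were called higher and 3.35% lower. The median log2 fold change was 0.30, with 19 of 22 above 0. The list's summed level was 1197, 1301 and 1303 CPM in knockout libraries and 926, 954 and 952 CPM in control libraries. Itga6, the integrin alpha chain of laminin receptors on epithelial cells, had 69.5, 78.1 and 86.6 CPM in knockout libraries and 37.3, 38.1 and 41.2 CPM in control libraries. The groups did not overlap, it rose by 1.01 on the log2 scale (SE 0.119, adjusted p by edgeR = 0.000442), and it kept its call under all 16 other settings. Sdc3, a heparan sulfate proteoglycan of the cell surface, had 52.6, 45.7 and 58.1 CPM in knockout libraries and 27.0, 27.8 and 30.5 CPM in control libraries (log2 fold change 0.87, SE 0.129, edgeR adjusted p = 0.00197). Ddr1, a receptor kinase activated by collagen, had 279, 250 and 276 CPM in knockout libraries and 152.5, 178 and 188 CPM in control libraries (log2 fold change 0.63, SE 0.120, edgeR adjusted p = 0.00827). The groups did not overlap for either gene. Sdc4 (log2 fold change 0.46, edgeR adjusted p = 0.0289, called in 2 of the 6 fits without 1 library) rose as well, as did Itga3, Dag1 and Cd44 (0.43, 0.59 and 0.58, adjusted p 0.0329, 0.0470 and 0.0487), which were named after their values were seen. Itgb1, the common integrin beta chain, had a log2 fold change of 0.26 and Bcam, a receptor of the laminin alpha-5 chain, one of 0.01, and neither was called (edgeR adjusted p 0.1955 and 0.987). Both were singled out after their values were seen. Without knockout 1 the count of receptors that rose was 3, without knockout 2 it was 3, without control 1 it was 4, without control 2 it was 3, and without control 1 and knockout 1 together it was 1. Over all genes the calls fell as well, from 1312 of 18558 by edgeR with all 6 libraries. They were 610 of 19549 without knockout 1, 932 of 19547 without knockout 2 and 661 of 19429 without control 1. Without control 2 they were 519 of 19268, and without control 1 and knockout 1 together 124 of 19018.

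**Figure D5:**
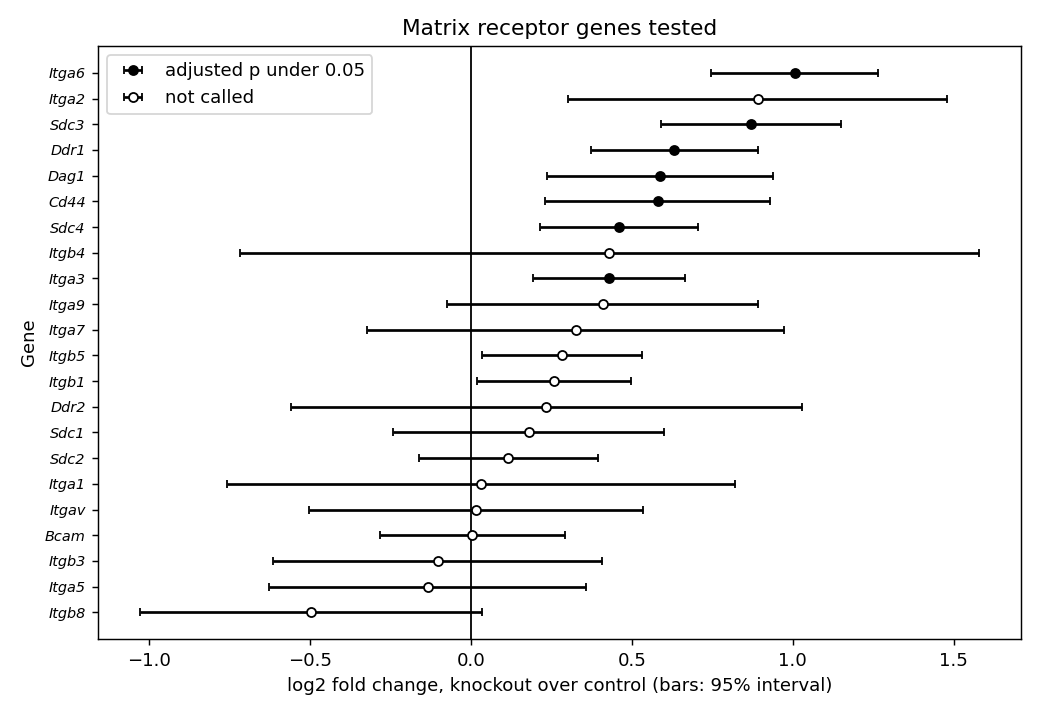
Log2 fold change, knockout over control, of the 22 matrix receptor genes tested, with 95% intervals from the edgeR fit. Filled points are the 7 genes with an adjusted p under 0.05, led by Itga6 at 1.01, and open points are not called.

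Genes of collagen synthesis and crosslinking were lower in 3 of 29 genes tested and higher in 0, against 3.35% and 3.72% of all genes tested, with a median log2 fold change of -0.18. Ppib, a prolyl isomerase that takes part in collagen folding, had 29.2, 26.5 and 23.5 CPM in knockout libraries and 53.0, 58.4 and 49.6 CPM in control libraries, a fall of 1.03 on the log2 scale (SE 0.129, edgeR adjusted p = 0.000636). Whether this fall bears on collagen was not tested. P3h1, a collagen prolyl hydroxylase, fell to 26.4 ± 0.987 CPM in knockout islets, against 40.8 ± 7.27 CPM in control islets (adjusted p = 0.0203). P4hb, which serves as a subunit of collagen prolyl hydroxylase and as a protein disulfide isomerase of secretory cells at large, fell to 1116 ± 31.55 CPM, against 1619 ± 188 CPM (adjusted p = 0.0413). P4hb was called in 0 and P3h1 in 4 of the 6 fits without 1 library. The count was 1 without control 2, 1 without knockout 1 and 1 without both shallow libraries, and 5 with DESeq2 or with upper-quartile factors. Over all genes, 519 were called without control 2, 610 without knockout 1 and 124 without both shallow libraries. DESeq2 called 2040 and upper-quartile factors gave 1442, against 1312 by edgeR with all 6 libraries. Of 44 further matrix proteins tested, 0 were called by edgeR and 7 had an unadjusted p under 0.05, which 21.6% of all genes had. Their median log2 fold change was 0.02. DESeq2 called 1 higher and 3 lower, and limma-voom 2 higher and 1 lower. Their summed level was 774, 1245 and 1305 CPM in knockout libraries and 1631, 2024 and 1867 CPM in control libraries, of which Spp1, osteopontin, also a duct marker, took 57.3% in knockout and 73.0% in control islets. Spp1 itself had 350, 732 and 823 CPM in knockout libraries and 1158, 1481 and 1390 CPM in control libraries. Its log2 fold change of -1.08 was not called (edgeR adjusted p = 0.055), but was called under 5 of 16 other settings. The lower sum in knockout libraries thus lies mainly in Spp1 and does not describe the list as a whole. Of 19 genes of matrix breakdown and its inhibitors, whose median log2 fold change was 0.18, only Mmp15 was called by edgeR. This membrane-bound metalloproteinase rose to 18.5 ± 1.58 CPM in knockout islets, against 10.2 ± 3.75 CPM in control islets (edgeR adjusted p = 0.0481). Of 19 genes of transforming and platelet-derived growth factor signalling, with a median of 0.26, only Tgfbr3 was called by edgeR. This co-receptor rose to 6.185 ± 1.01 CPM, against 3.39 ± 0.360 CPM (adjusted p = 0.0455). Without 1 library Mmp15 was called in 1 of 6 fits, the one without control 2, and Tgfbr3 in 0 of 6.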

How the data were processed

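RNA of whole islets was sequenced in 6 libraries. The submitters' processing notes name STAR 2.7.3a, featureCounts, Trim Galore 0.6.7, FastQC 0.11.9 and build GRCm39 (mm39), and the authors deposited raw whole-number counts per gene. How strand, read pairs and reads with several matches were handled is not stated there. Between 62.3% and 73.2% of nonzero counts were even, so a count may be less than a fragment. Column names give only the group, so libraries are numbered after the columns, and same-group libraries differed by more than sampling noise, the chi-square per gene averaging at least 36.7.

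Symbols were matched by gene ID. Exonic length and GC content came from GENCODE M21 (GRCm38, another build) by gene ID for 97.6% of genes tested. The test, for genes passing filterByExpr, was that of edgeR 4.0.16 under R 4.3.3 (TMM, robust quasi-likelihood, Benjamini-Hochberg over all 18558 genes, threshold 0.05). It was also run on simulated counts with known folds, drawn from gene means and dispersions estimated in these libraries. The outcome of that run is not given here. The edgeR test reports no SE, so SE was derived as the absolute log2 fold change over the square root of the F statistic. Intervals are 95% t intervals from that SE and are approximate. Chain ratios used exact permutation in SciPy 1.17.1. Alternatives used DESeq2 1.42.0, limma 3.58.1 and other settings given below. Each gene set is described by counts and medians, without a set test. The genes and lists were chosen with earlier results of these data known. All 33 genes are accounted for, and from each further list up to 4 called genes with the smallest p were named, except for a result that is not reported here. Intervals and floors cover counting error or library spread only.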

Additional observations from a re-analysis of the deposited data

How the results depend on the processing

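Over 16 alternatives the median log2 fold change of the 32 genes tested ran from -0.38 (without control 3) to 0.08 (without both shallow libraries), moving by less than the 0.265 SD of library medians within groups. That SD comes from the same 32 genes and includes the low control 3, so it is a wide yardstick. The sign changed without both shallow libraries, from -0.17 by edgeR with all 6 libraries. Their count of calls was 2 with no filter on low counts (1 higher, Rgs5, and 1 lower, Col5a2). It was 1, Rgs5, higher in each case, with DESeq2, limma-voom, acinar markers as a covariate, and length and GC offsets. Leaving out 1 library gave 0 to 5 calls (0 to 1 higher, 0 to 4 lower). Of 512 recomputed values, 490 kept their direction and 22 did not, in 11 genes, none of them called. Without both shallow libraries the log2 fold changes that changed sign were Col4a1 (0.0928), Lama4 (0.26), Lamb2 (0.0645) and Acta2 (0.13), with limma-voom Lama4 (0.18) and Acta2 (0.23), with length and GC offsets Col4a2 (-0.0108), Lama5 (-0.0070) and Fn1 (-0.10), and with upper-quartile factors Fn1 (-0.0156). Leaving out 1 library, log2 fold changes ran from -0.22 to 0.0241 for Col4a1, -0.10 to 0.30 for Col15a1, -0.30 to 0.11 for Lama4, -0.27 to 0.76 for Fn1, -0.0477 to 0.50 for Dcn, -0.27 to 0.0507 for Sparc, -0.65 to 0.0450 for Timp1 and -0.76 to 0.27 for Acta2. The further lists held 23 called genes, against 39 with no filter, 3 without both shallow libraries and 7 to 23 when 1 library was left out. Over all genes the calls moved likewise, from 1312 to 2153 with no filter and 124 without both shallow libraries. They were 519 to 1309 when 1 library was left out. The cause was not tested. Across all genes, log2 fold changes were higher for longer genes (Spearman's rho 0.212 over 18115 genes, which are not independent). Counts in the shallow libraries limit Lama2, Lum and Tagln. No paired analysis was possible because the columns carry no animal numbers.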
